A study of Mus musculus with 8 samples.

Results

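The 38 genes described here encode the machinery that copies DNA in S phase and the factors that start it. They were chosen by name and found as the probes whose annotated symbol is one of the 38 names. All 38 were measured, by 49 probes, and they are 38 of the 21794 genes tested. Their genes lie on 14 mouse chromosomes in the RefSeq annotation.

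Replication origins are first licensed: the origin recognition complex, Cdc6 and Cdt1 load the Mcm2-7 ring onto DNA. Cdc45 and the GINS complex then turn the ring into an active helicase, primase and the polymerases copy the strands with the sliding clamp PCNA, and Fen1 and Lig1 join the lagging-strand fragments. Many of these genes are transcribed in late G1 and S phase under E2F factors, so that their mRNA marks cycling cells, and type I interferon is known to slow the cycling of many cell types.

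Total RNA from mammary epithelium of virgin wild-type FVB/N-J mice was measured on 8 two-colour arrays, in 4 groups of 2. The cells came from gate P4, enriched for mammary stem cells (MaSC), which lie in the basal layer and can rebuild a gland, or from gate P5, enriched for luminal progenitors (LP), and each was grown as mammospheres, floating spheres of epithelial cells. Control cultures were set against cultures with interferon alpha (IFNα) at 1000 U/ml, and all were harvested at 8 days. Each array carried the sample's RNA in Cy5 and a universal reference, RNA pooled from 11 mouse cell lines, in Cy3. The groups are called MaSC control, MaSC IFNα, LP control and LP IFNα. The titles give both fractions 1 surface phenotype, so the groups were taken from the gate and the other sample labels. The labels do not say whether replicates came from separate mice or cultures, so that the p-values below measure only the spread between these samples, which may be technical. In bulk RNA, fewer cells in S phase and less of these mRNAs per cell cannot be told apart.

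All values are log2 ratios of sample to reference RNA, and a difference of 1 is a change by a factor of 2. A value below 0 means less of the mRNA, relative to the other genes of the array, than in the reference cell lines. Groups were compared with limma over all 8 arrays, p-values were adjusted over all genes, and a gene passed when its adjusted p was below 0.05. LP control replicate 1 stood apart from the other arrays: the SD of its log ratios was 0.626, against 1.19 to 1.26 on the other 7. Its correlation with LP control replicate 2 over all genes was 0.753, while the replicates of the other groups correlated at 0.860 to 0.879. The LP differences of the 38 genes are therefore also given without this array and after rescaling, and the plot by control array shows each gene against each LP control. As a check of the treatment, 18 of 18 measured interferon-stimulated genes were higher on both IFNα arrays than on both controls in each population, by a median of 5.68 in MaSC and 5.33 in LP. Of these, 13 passed in MaSC and 11 in LP, where 0.229% and 0.33% of all genes passed as higher.

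Promoters are printed for the licensing gene Cdc6 and the helicase genes Mcm5 and Mcm6, which held E2F letters, and for Rpa1, the 1 member that passed a test below, since E2F control is what replication genes are known to share. RefSeq windows from 250 bases before to 50 bases after the transcription start (mouse build GRCm38.p6) were matched for 32 of the 38 genes. Capitals mark matches to the E2F letters TTTCCCGC, TTTGGCGC, TTTCGCGC or TTTGCCGC on either strand.
Cdc6 (chr11:98907901-98908200, plus strand): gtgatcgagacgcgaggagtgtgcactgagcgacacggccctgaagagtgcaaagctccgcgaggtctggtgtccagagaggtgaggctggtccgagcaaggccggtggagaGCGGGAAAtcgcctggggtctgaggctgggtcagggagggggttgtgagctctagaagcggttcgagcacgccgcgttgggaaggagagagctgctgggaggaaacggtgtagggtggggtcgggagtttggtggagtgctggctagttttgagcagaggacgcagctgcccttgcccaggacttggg
Mcm5 (chr8:75109259-75109558, plus strand): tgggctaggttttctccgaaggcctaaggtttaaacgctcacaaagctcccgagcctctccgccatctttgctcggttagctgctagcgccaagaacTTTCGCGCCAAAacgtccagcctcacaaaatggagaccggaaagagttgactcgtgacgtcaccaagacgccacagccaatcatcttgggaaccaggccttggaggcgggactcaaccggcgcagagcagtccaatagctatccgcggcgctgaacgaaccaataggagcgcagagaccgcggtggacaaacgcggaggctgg
Mcm6 (chr1:128359656-128359955, minus strand): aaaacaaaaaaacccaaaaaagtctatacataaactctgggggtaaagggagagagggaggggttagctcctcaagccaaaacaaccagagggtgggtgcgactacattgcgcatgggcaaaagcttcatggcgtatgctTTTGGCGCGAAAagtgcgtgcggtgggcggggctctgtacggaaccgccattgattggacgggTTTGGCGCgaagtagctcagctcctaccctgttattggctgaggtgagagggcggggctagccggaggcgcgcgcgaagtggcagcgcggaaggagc
Rpa1 (chr11:75348334-75348633, minus strand): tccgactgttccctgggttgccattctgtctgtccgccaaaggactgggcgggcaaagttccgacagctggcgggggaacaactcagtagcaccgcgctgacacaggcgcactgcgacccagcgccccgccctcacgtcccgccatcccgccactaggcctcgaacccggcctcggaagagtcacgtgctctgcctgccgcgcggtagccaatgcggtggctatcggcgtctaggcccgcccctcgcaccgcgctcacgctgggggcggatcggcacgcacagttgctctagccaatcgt
Cdc6 held 1 match, 138 bases before the start site of this window. The annotated Cdc6 gene begins at 98907709, before the window, so that the match lies inside the gene. The windows of Orc1, Rfc1 and E2f1 and the matched windows of Lig1 and Uhrf1 also lay inside their annotated genes. Mcm5 held 2 matches, on opposite strands and overlapping, and Mcm6 held 3, of which 2 overlapped in the same way. The Rpa1 window held none of these letters.

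Of the 32 genes with a window, 12 (37.5%) held an E2F match in any of their windows, against 704 (2.605%) of the 27025 genes of the promoter table. The CCAAT box, written CCAAT, was found in 21 (65.6%) of the members and 41.1% of all genes. A core of the interferon-stimulated response element, GAAA followed after any 2 bases by GAAA, was in 0 members and in 3.99% of all genes. TTTGAA, the cell cycle homology region of late cell cycle genes, was in 3 members (9.38%) and in 20.2% of all genes. All motifs were searched on both strands, and a gene with several start sites counted once. With IFNα, the median log2 change of the 12 genes with an E2F match was -0.31 in MaSC and -0.61 in LP, and that of the 20 without one was -0.37 and -0.41. The ranges of change of both sets overlapped over most of their width. Only these exact letters within these windows were searched, so that a gene without a match need not lack E2F control.

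As a group, the replication genes were lower than the reference in every condition. Of the 38 genes, 32 were below 0 on all 8 arrays, as were 21.5% of all genes, and only 0 to 4 members were above 0 on any 1 array. The mean of the 38 was -0.78 and -1.14 on the MaSC control arrays and -1.33 and -1.38 with IFNα. On the LP control arrays it was -0.85 and -1.40, and with IFNα it was -1.55 and -1.75. The means with IFNα were thus below both controls in each population, while LP control replicate 1, the narrow array, and MaSC control replicate 1 each stood well above their partner. By rank among all genes of the array, which does not depend on the width of an array, the median member stood at percentile 18.2 and 11.5 in MaSC controls and 10.3 and 10.2 in MaSC with IFNα. In LP the order was not kept: the controls stood at percentile 6.06 and 10.2 and the IFNα arrays at 8.99 and 7.29.

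**Figure D1:**
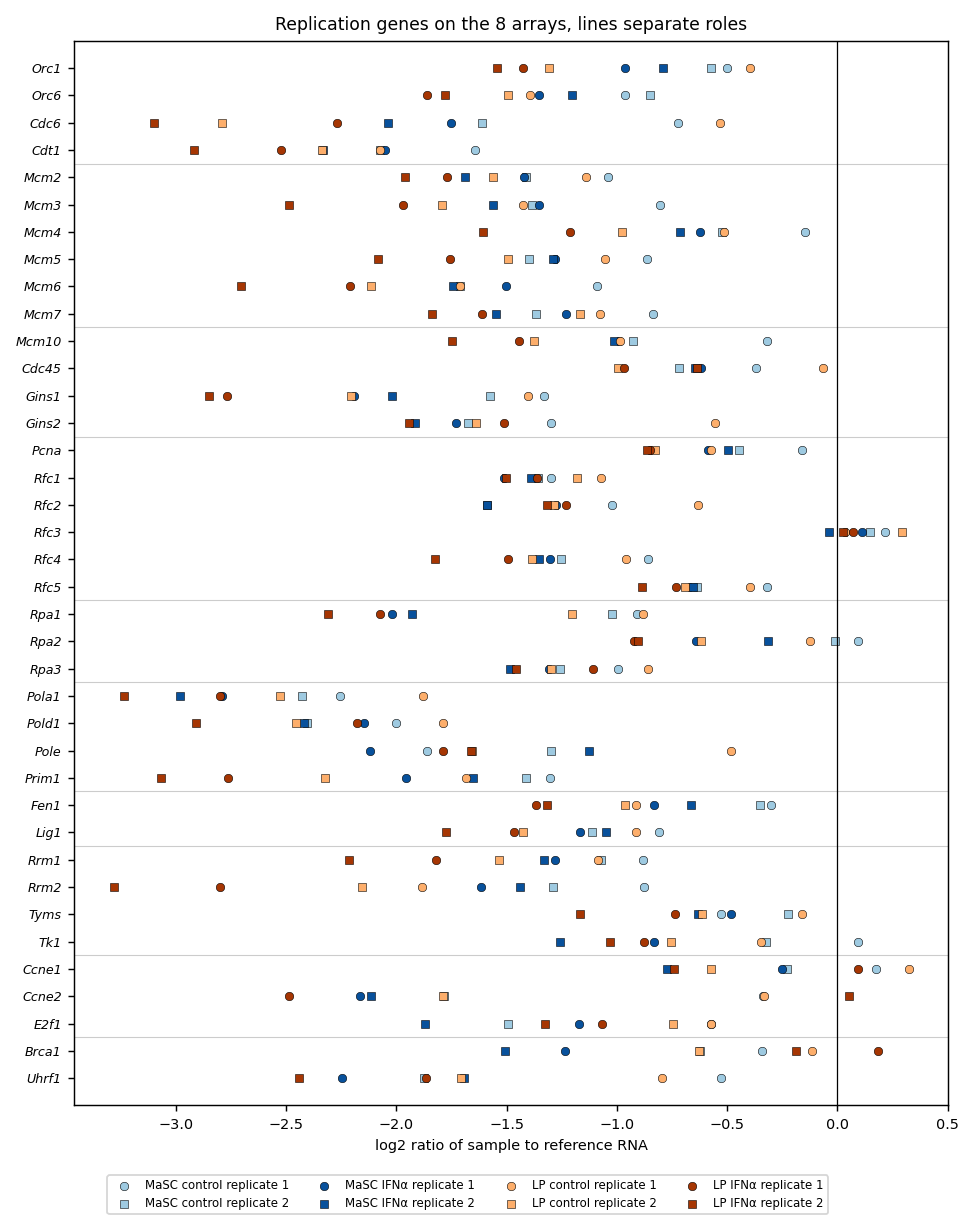
Log2 ratio of sample to reference RNA (x axis) of each of the 38 replication genes (rows, by role) on each of the 8 arrays (1 point per array, colour for group, shape for replicate). Most points lie left of 0, with Rfc3 the gene nearest to it, and the dark LP IFNα points are the lowest for most genes.

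The first question of the design is how IFNα changed these genes in MaSC. All 38 genes had a fitted difference below 0, as did 58.6% of all genes, with a median of -0.33 against -0.047 over all genes. None passed the test (lowest adjusted p = 0.302, for Rpa1), where 0.234% of all genes passed in either direction and 0.00459% passed as lower. At an unadjusted p below 0.05, 4 members were lower (Rpa1, Tk1, Brca1 and Fen1), against 1.9% of all genes. In 25 of the 38 both IFNα arrays lay below both controls, a pattern seen in 20.3% of all genes. The size rested on MaSC control replicate 1: without that array the median was -0.15 and 32 of the 38 were below 0, and without replicate 2 the median was -0.52.

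In LP, 37 of the 38 genes had a difference below 0, against 49.6% of all genes, and Brca1 was the exception. The median was -0.53, against 0.0038 over all genes. None passed (lowest adjusted p = 0.169, again for Rpa1), where 0.33% of all genes passed, every one of them as higher. At an unadjusted p below 0.05, 7 members were lower (Rpa1, Rrm2, Gins1, Prim1, Rrm1, Pola1 and Mcm4), against 3.69% of all genes. Both IFNα arrays lay below both controls in 28 members, a pattern seen in 18.6% of all genes.

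The LP values depended on the narrow control array. Against LP control replicate 2 alone, the median was -0.29, 31 of the 38 were below 0, and both IFNα arrays lay below that control in 29 members (32.2% of all genes) and above it in 2 (32.3%). Against replicate 1 alone the median was -0.74, and 35 members (37.4% of all genes) lay below it on both arrays. When all arrays were centred and scaled to 1 SD, the median was -0.16 with 29 genes below 0. Full quantile normalization, which stretches the narrow array to the width of the others, gave a median of 0.016 with 18 of the 38 below 0, so that the direction in LP was not kept. After it 20 of the 38 stood above 0 in LP. Of the 19 genes given below with values on every array, these included Orc6, Mcm2, Mcm5, Pcna, Rfc4, Pola1, Fen1, Ccne2 and Brca1. The same normalization over the other 7 arrays, without the narrow one, gave -0.23 with 30 below 0. In MaSC the same settings gave medians of -0.27, -0.31 and -0.34, with 37 or 38 genes below 0.

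**Figure D2:**
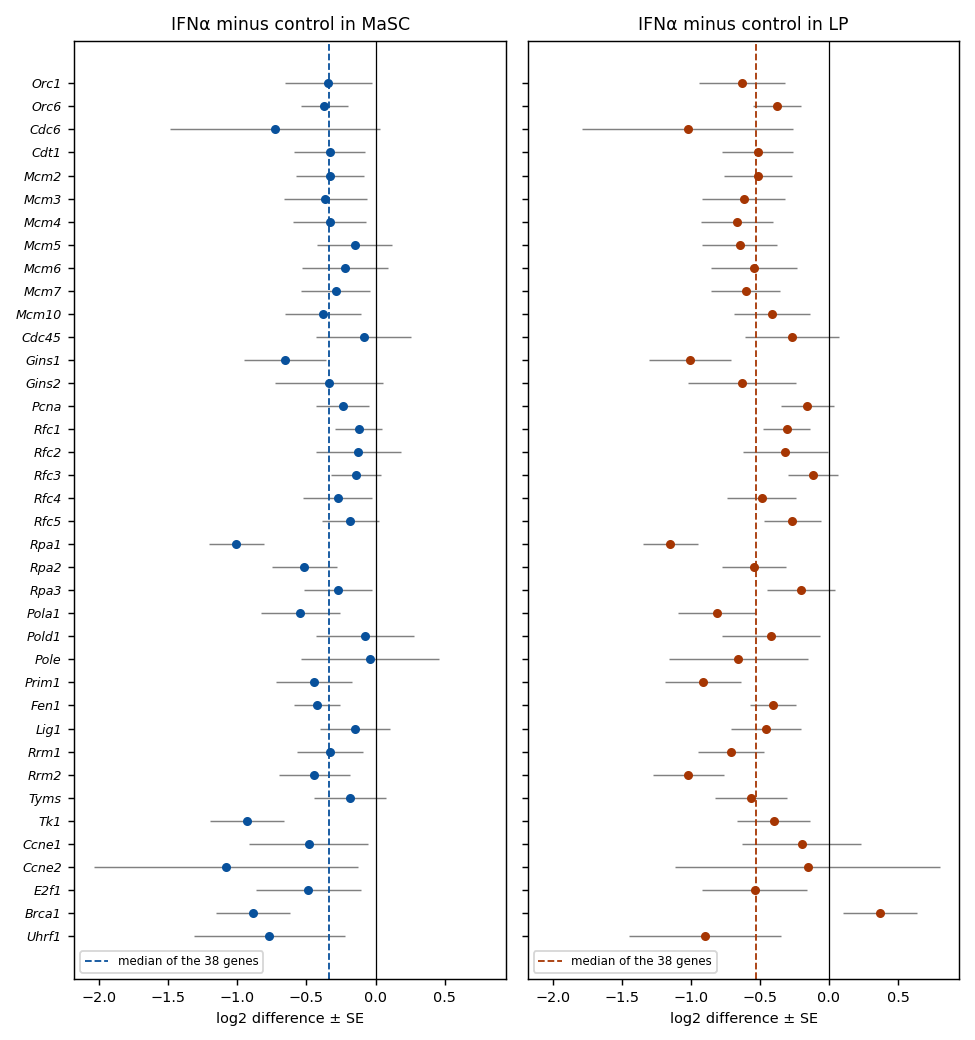
Fitted log2 difference, IFNα minus control (x axis), of each gene in MaSC (left) and LP (right). Bars are the standard error of the fit and the dashed line is the median of the 38 genes, -0.33 in MaSC and -0.53 in LP. Brca1 is the 1 gene right of 0 in LP.

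**Figure D3:**
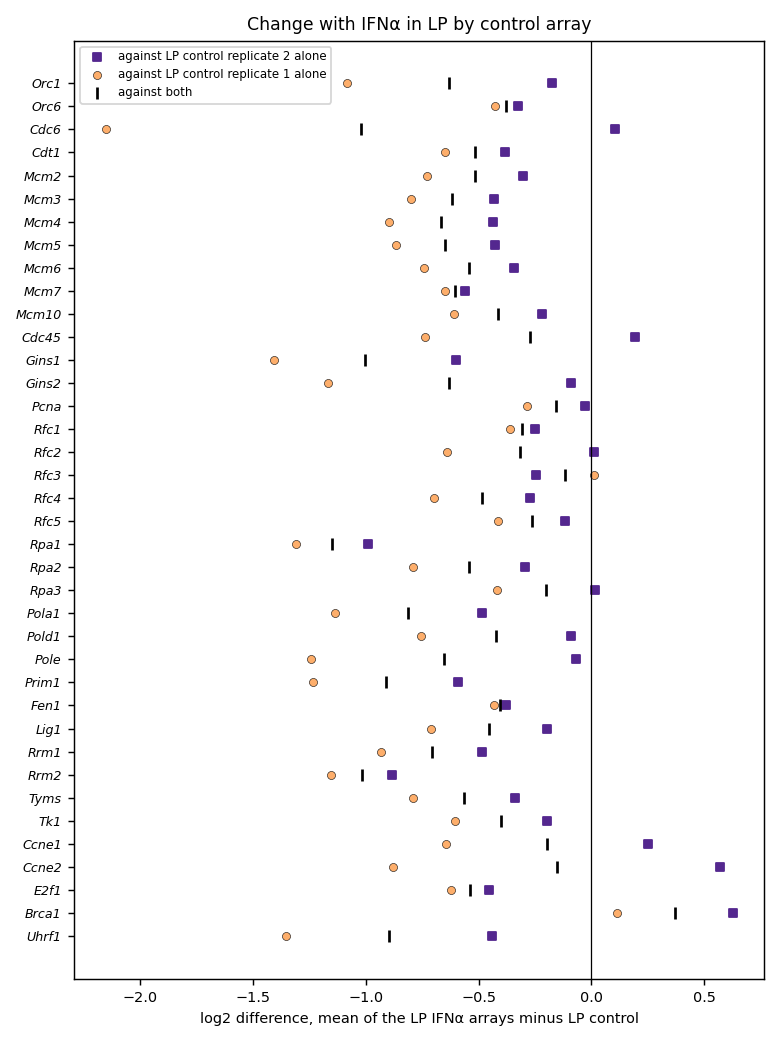
Log2 difference in LP (x axis) of each gene, as the mean of the 2 IFNα arrays minus LP control replicate 1 alone (circles), replicate 2 alone (squares) or both (bars). The squares lie nearer to 0 than the circles for most genes, and 7 of the 38 squares lie right of 0.

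Origin licensing is carried here by Orc1 and Orc6, subunits of the origin recognition complex, and by the loaders Cdc6 and Cdt1. Their median change with IFNα was -0.36 in MaSC and -0.57 in LP, and 0 of the 4 passed in either. Without LP control replicate 1 the LP median was -0.25. Orc6 stood at -0.96 and -0.85 in MaSC controls, -1.35 and -1.20 in MaSC with IFNα, -1.39 and -1.49 in LP controls, and -1.86 and -1.78 in LP with IFNα. The 4 groups did not overlap, in that order from high to low, and the difference with IFNα was -0.37 ± 0.17 (SE) in MaSC and -0.38 ± 0.17 in LP. These had adjusted p-values of 1.00 and 0.713.

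Cdc6 varied most widely of all 38 genes, over 2.57 log2 units. It stood at -0.72 and -1.61 in MaSC controls and at -1.75 and -2.04 with IFNα. In LP the controls were at -0.53 and -2.79, far apart, and the IFNα arrays at -2.27 and -3.10. The fitted difference was -0.73 ± 0.76 in MaSC and -1.02 ± 0.76 in LP, so that neither exceeded the spread by the test (adjusted p = 1.00 and 0.809). Against LP control replicate 2 alone it was 0.11. The 2 Cdc6 probes gave -0.59 and -0.87 in MaSC and -0.84 and -1.21 in LP. They disagreed on LP control replicate 2. On probe A_52_P219473 this control, at -3.64, lay below both LP IFNα arrays, at -2.36 and -3.35. On probe A_66_P131979 it lay above both, at -1.94 against -2.18 and -2.84.

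The 6 Mcm genes form the ring of the replicative helicase. Their medians were -0.31 in MaSC and -0.61 in LP, where the 6 differences ran only from -0.67 to -0.51 and both IFNα arrays lay below both controls in 6 of 6, against 18.6% of all genes. In MaSC that was so in 2 of 6, against 20.3% of all genes, and 0 of 6 passed in either population. Without LP control replicate 1, 6 of 6 were still below 0 in LP with a median of -0.43, but after quantile normalization 1 of 6 was, with a median of 0.13.

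Mcm2 stood at -1.04 and -1.41 in MaSC controls, -1.42 and -1.69 with IFNα, -1.14 and -1.56 in LP controls, and -1.77 and -1.96 with IFNα. The IFNα arrays were below the controls in both populations, by 0.011 at the closest in MaSC, and the differences were -0.33 ± 0.25 and -0.51 ± 0.25 (adjusted p = 1.00 and 0.726). Mcm4 stood at -0.15 and -0.52 in MaSC controls, -0.62 and -0.71 with IFNα, -0.51 and -0.97 in LP controls, and -1.21 and -1.61 with IFNα. It was the Mcm gene with the lowest p in LP, with a difference of -0.67 ± 0.26 (adjusted p = 0.651), and -0.33 ± 0.26 in MaSC. Mcm5 stood at -0.87 and -1.40 in MaSC controls, -1.28 and -1.29 with IFNα, -1.05 and -1.49 in LP controls, and -1.76 and -2.08 with IFNα. Its groups overlapped in MaSC (-0.15 ± 0.27) and did not in LP (-0.65 ± 0.27, adjusted p = 0.681).

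Helicase activation was represented by Mcm10, Cdc45 and the GINS subunits Gins1 and Gins2. Gins1 stood at -1.33 and -1.57 in MaSC controls, -2.19 and -2.02 with IFNα, -1.40 and -2.21 in LP controls, and -2.77 and -2.85 with IFNα. The IFNα arrays were below the controls in both populations, by -0.66 ± 0.30 in MaSC and -1.01 ± 0.30 in LP (adjusted p = 1.00 and 0.505), and by -0.60 in LP against control replicate 2 alone. Cdc45 had the smallest differences of the 4, -0.087 in MaSC and -0.27 in LP, with overlapping groups in both. Mcm10 differed by -0.38 and -0.41, and Gins2 by -0.33 and -0.63.

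The clamp PCNA encircles DNA behind the polymerase, and the Rfc1 to Rfc5 complex loads it. These 6 genes had the smallest median differences of any role with more than 3 members, -0.16 in MaSC and -0.29 in LP, and 0 of 6 passed. Pcna stood at -0.16 and -0.44 in MaSC controls, -0.59 and -0.50 with IFNα, -0.57 and -0.83 in LP controls, and -0.85 and -0.86 with IFNα. IFNα and control arrays did not overlap in either population, but LP control replicate 2 lay within 0.021 of an IFNα array, and the differences were -0.24 ± 0.19 and -0.16 ± 0.19 (adjusted p = 1.00 and 0.887). Rfc4 stood at -0.86 and -1.25, then -1.30 and -1.35 with IFNα in MaSC, and at -0.96 and -1.38, then -1.49 and -1.82 with IFNα in LP. It had the lowest p of the clamp loader genes, with -0.27 ± 0.25 in MaSC and -0.49 ± 0.25 in LP. Rfc3 was the 1 member with group means above 0 in all 4 groups, from 0.038 to 0.18.

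Replication protein A coats the single-stranded DNA that the helicase opens, as a complex of the Rpa1, Rpa2 and Rpa3 subunits. Rpa1 was the 1 member that passed a test: over both populations together it fell by 1.08 ± 0.14 on the log2 scale (95% interval -1.43 to -0.73, adjusted p = 0.0467). In that average response 0.592% of all genes passed in either direction, and as lower only Rpa1 did (0.00459%). At an unadjusted p below 0.05, 12 members were lower on average, against 3.37% of all genes, and all 38 had an average difference below 0, against 53.2%. On the arrays, Rpa1 stood at -0.91 and -1.02 in MaSC controls, -2.02 and -1.93 with IFNα, -0.88 and -1.20 in LP controls, and -2.07 and -2.31 with IFNα. All 4 IFNα arrays lay below all 4 controls with a gap of 0.73, and the replicates of each group stood within 0.32 of each other. The separate differences were -1.01 ± 0.20 in MaSC and -1.15 ± 0.20 in LP, and against LP control replicate 2 alone -0.99. The call was narrow: in each of the 15 alternatives run the adjusted p was above 0.05, from 0.0527 to 0.873, while the difference stayed between -1.16 and -0.30.

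The gene value of Rpa1 averages 2 probes, and they differed. Probe A_51_P333159 stood at -0.87 and -0.89 in MaSC controls, -2.67 and -2.58 with IFNα, -0.63 and -0.94 in LP controls, and -2.62 and -2.90 with IFNα. Its difference was -1.75 in MaSC and -1.97 in LP. Probe A_55_P1964805 stood at -0.95 and -1.15, then -1.37 and -1.27 with IFNα in MaSC, and at -1.13 and -1.46, then -1.53 and -1.73 with IFNα in LP. Its difference was -0.27 in MaSC and -0.33 in LP, near the median of the 38 genes. When each probe was fitted singly over all 30398 probes, the first passed in LP (adjusted p = 0.0394, where 0.00987% of probes passed as lower) and on average (adjusted p = 0.00745, 0.0164%), and missed the threshold in MaSC (adjusted p = 0.0642). The second probe passed in none of these. The gap between the probes, the first minus the second, was 0.34 ± 0.21 (SD, n = 4) on control arrays and -1.22 ± 0.11 (SD, n = 4) on IFNα arrays. This difference between the probes is given as a description, without a test. With the probe of the higher mean in place of the average, the Rpa1 response was -0.30 (adjusted p = 0.873). What part of the transcript each probe reads was not analysed here.

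Rpa2 was lower by 0.52 in MaSC and 0.54 in LP, with no overlap between IFNα and control arrays. Rpa3 differed by -0.27 and -0.20, and its LP groups overlapped.

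The polymerases and primase include Pola1 and Prim1, which lay down the primers, and Pold1 and Pole, the catalytic subunits of the lagging- and leading-strand polymerases. Pola1 was on average the lowest of the 38 genes against the reference, at -2.25 and -2.43 in MaSC controls, -2.79 and -2.98 with IFNα, -1.88 and -2.53 in LP controls, and -2.80 and -3.23 with IFNα. The IFNα arrays were below the controls in both populations, with differences of -0.55 ± 0.29 in MaSC and -0.81 ± 0.29 in LP (adjusted p = 1.00 and 0.589). Prim1 stood at -1.30 and -1.41 in MaSC controls, -1.96 and -1.65 with IFNα, -1.68 and -2.32 in LP controls, and -2.76 and -3.07 with IFNα. It differed by -0.45 ± 0.28 in MaSC and -0.91 ± 0.28 in LP (adjusted p = 1.00 and 0.521). Against LP control replicate 2 alone these genes differed in LP by -0.49 and -0.59. Pold1 and Pole overlapped in MaSC, with -0.079 and -0.043, and had -0.42 and -0.66 in LP. The 3 Pole probes disagreed in LP, from -1.10 to -0.03.

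Fen1, the flap nuclease that trims Okazaki fragments, stood at -0.30 and -0.35 in MaSC controls, -0.83 and -0.67 with IFNα, -0.91 and -0.96 in LP controls, and -1.37 and -1.32 with IFNα. Its replicates stood close together and the 4 groups did not overlap. The differences were of like size in both populations, -0.42 ± 0.17 in MaSC and -0.40 ± 0.17 in LP (adjusted p = 1.00 and 0.673), and -0.38 against LP control replicate 2 alone. Lig1, the ligase that seals the fragments, differed by -0.15 in MaSC and -0.45 in LP.

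Nucleotide supply was represented by the ribonucleotide reductase subunits Rrm1 and Rrm2, thymidylate synthase (Tyms) and thymidine kinase 1 (Tk1). Rrm2, the subunit whose level is known to follow S phase, stood at -0.88 and -1.29 in MaSC controls, -1.62 and -1.44 with IFNα, -1.88 and -2.15 in LP controls, and -2.80 and -3.28 with IFNα. The 4 groups did not overlap and LP with IFNα was the lowest. The difference was -0.44 ± 0.26 in MaSC and -1.02 ± 0.26 in LP (adjusted p = 1.00 and 0.413), and -0.88 against LP control replicate 2 alone. Rrm1 had -0.33 and -0.71, and Tyms -0.18 and -0.57.

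Tk1 stood at 0.09 and -0.32 in MaSC controls, -0.83 and -1.26 with IFNα, -0.35 and -0.76 in LP controls, and -0.87 and -1.03 with IFNα. IFNα and control did not overlap in either population, with differences of -0.93 ± 0.27 in MaSC (adjusted p = 0.716) and -0.40 ± 0.27 in LP (adjusted p = 0.795). These averages hid a disagreement between its 3 probes. Probe A_55_P2056501 stood at 1.55 and 1.17 in MaSC controls and at 0.04 and -1.19 with IFNα, and at 0.15 and -0.10 in LP controls and 0.36 and 0.44 with IFNα. It differed by -1.94 in MaSC and by 0.37 in LP, whereas the other probes of Tk1 differed by -0.53 and -0.32 in MaSC and by -0.99 and -0.59 in LP. Of the 3 probes, this 1 gave the largest difference in MaSC, and when fitted singly it alone had an unadjusted p below 0.05 there. Only probe A_55_P2056496, at -0.32 in MaSC and -0.59 in LP, was annotated with a transcript.

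S-phase entry was represented by cyclins E1 and E2 (Ccne1 and Ccne2), which drive Cdk2 at the G1/S border, and by the transcription factor E2f1. Ccne1 stood at 0.17 and -0.23 in MaSC controls, -0.25 and -0.77 with IFNα, 0.32 and -0.57 in LP controls, and 0.09 and -0.74 with IFNα. It differed by -0.48 ± 0.43 in MaSC, where the groups stood 0.024 apart, and by -0.20 ± 0.43 in LP, where they overlapped. E2f1 stood at -0.57 and -1.49 in MaSC controls, -1.17 and -1.87 with IFNα, -0.57 and -0.74 in LP controls, and -1.07 and -1.33 with IFNα, with differences of -0.49 ± 0.38 and -0.54 ± 0.38.

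Ccne2 was the least repeatable member. It stood at -0.34 and -1.78 in MaSC controls and at -2.17 and -2.12 with IFNα. In LP the controls were at -0.34 and -1.79 and the IFNα arrays at -2.49 and 0.05. The IFNα replicates of LP thus lay 2.54 apart, on both sides of the controls, and the standard error of 0.96 exceeded the difference of -0.15 in LP and nearly equalled that of -1.08 in MaSC. It is read by a single probe, so that no other probe checks these values.

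Brca1, a factor of homologous recombination that is induced in S phase, was the 1 member with a difference above 0 in LP. It stood at -0.34 and -0.62 in MaSC controls and at -1.23 and -1.51 with IFNα, a difference of -0.89 ± 0.27 (adjusted p = 0.784). In LP the controls stood at -0.11 and -0.63 and the IFNα arrays at 0.18 and -0.19, a difference of 0.37 ± 0.27 (95% interval -0.29 to 1.03, adjusted p = 0.808). The groups did not overlap in MaSC and overlapped in LP. Tested directly, the response in MaSC minus that in LP was -1.26 ± 0.38 (95% interval -2.18 to -0.33), with an unadjusted p of 0.0161 and an adjusted p of 1.00. No gene of the 21794 passed in that comparison, and Brca1 was the 1 member with an unadjusted p below 0.05, where 1.81% of all genes had one in its direction. It too is read by 1 probe.

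Uhrf1, which carries DNA methylation over to the new strand, stood at -0.53 and -1.87 in MaSC controls, -2.25 and -1.69 with IFNα, -0.80 and -1.71 in LP controls, and -1.86 and -2.44 with IFNα. The MaSC groups overlapped and the replicates of each group lay 0.56 to 1.35 apart. The differences were -0.77 ± 0.55 and -0.90 ± 0.55 (adjusted p = 1.00 and 0.789).

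**Figure D4:**
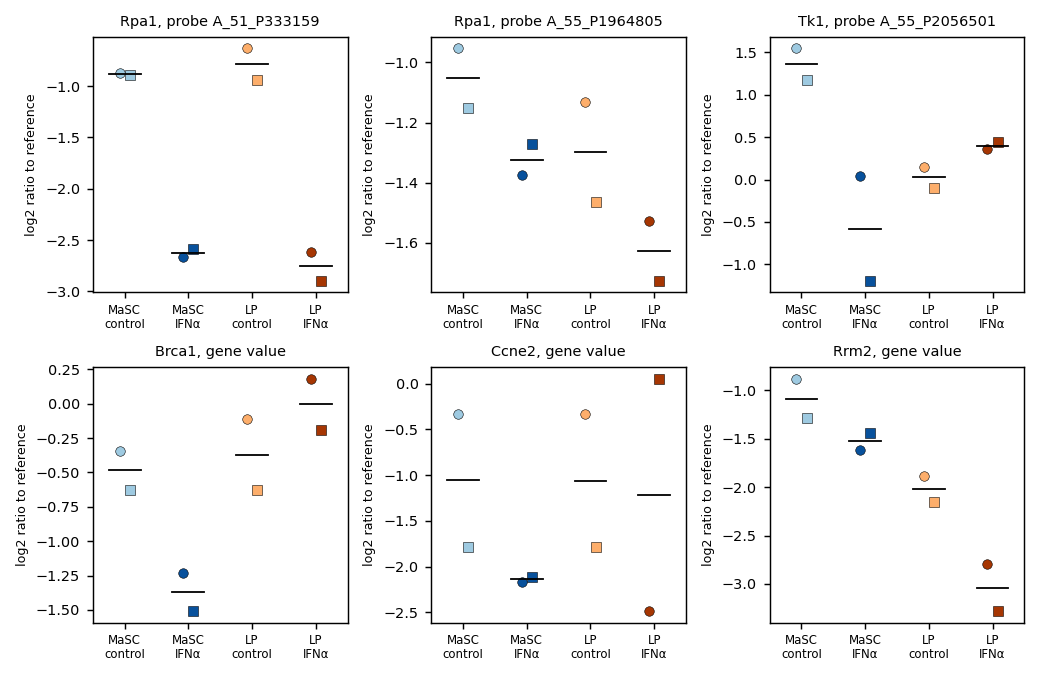
Log2 ratio of sample to reference RNA (y axis, a range of its own in each panel that need not include 0) on the 8 arrays for both Rpa1 probes, 1 Tk1 probe, and the gene values of Brca1, Ccne2 and Rrm2. Points are arrays (circle replicate 1, square replicate 2) and lines are group means. The first Rpa1 probe separates IFNα from control by at least 1.67 log2 units in each population, the second by at least 0.065.

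For 9 members, several probes allowed a comparison within the gene. The probes of Mcm3, Rfc4, Cdc6, Ccne1 and Uhrf1 gave differences with IFNα within 0.56 of each other in both populations. The Uhrf1 probes did disagree between populations, with MaSC minus LP at 1.03 and -0.93 in controls and 1.44 and -1.08 with IFNα. Those of Rfc5 differed by 0.32 in MaSC and 0.74 in LP, where 1 probe gave -0.63 and the other, annotated with no transcript, 0.10. The widest gaps were those of Rpa1 (1.47 and 1.64) and Tk1 (1.61 and 1.36), followed by Pole in LP (1.07). The probes of 6 of the 9 genes had 1 sign in both populations, the exceptions being Rfc5, Pole and Tk1.

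The design also sets the populations against each other. Between the controls the median of MaSC minus LP was 0.12, 28 of 38 were above 0 and 10 below, as were 50.7% of all genes, and 0 passed, where 0.601% of all genes did. Both MaSC arrays lay above both LP arrays in 11 members, a pattern seen in 23.7% of all genes, and below them in 1, Rfc1, against 22.7%. At an unadjusted p below 0.05, 3 members were higher in MaSC, Fen1 by 0.61, Rrm2 by 0.94 and Orc6 by 0.54, against 6.82% of all genes. The median was -0.085 without LP control replicate 2 and 0.47 without replicate 1, 0.45 with arrays scaled to 1 SD and 0.67 after quantile normalization, so that its size and sign depended on the LP control array used.

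With IFNα, where neither group holds that array, the median of MaSC minus LP was 0.32, 28 of 38 were above 0 and 10 below, as were 52% of all genes, and 0 passed, where 0.505% of all genes did. Both MaSC arrays lay above both LP arrays in 23 members, against 21.7% of all genes, and below them in 1, Brca1, against 28.6%. At an unadjusted p below 0.05, 8 were higher in MaSC, against 7.72% of all genes, and Brca1 was lower, against 9.18%. Rrm2 was nearest to passing, higher in MaSC by 1.51 ± 0.26 (adjusted p = 0.0826). Brca1 differed by -1.37 ± 0.27 (adjusted p = 0.101), and Prim1 by 1.11 ± 0.28 (adjusted p = 0.151). Under scaling or quantile normalization the median was 0.31 or 0.36.

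The response in MaSC minus that in LP had a median of 0.19, with 30 of 38 above 0 and 8 below, as were 55.3% of all genes, and 0 passing, as for all genes. Its sign was not stable: the median was -0.039 without LP control replicate 1, -0.14 with scaled arrays and -0.35 after quantile normalization. These data therefore gave no direction for a difference in response of the genes as a group. The comparisons within LP share the LP controls, and those within MaSC share the MaSC controls, with the population comparisons.

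Markers of the sorted fractions and of other cells were also compared, and only some of these lists differed between the populations. The mean of the 9 basal markers ran from 1.62 to 1.82 on MaSC arrays and from 0.20 to 0.46 on LP arrays. Of the 9, 7 were higher in MaSC than in LP, both in controls and with IFNα. The other 2, Itga6 and Itgb1, were lower in MaSC in both. Itgb1 averaged 0.17 in MaSC controls and 0.78 in LP controls, and Itga6 averaged 0.40 and 0.69. The mean of 8 luminal progenitor markers ran from 3.22 to 4.02 on MaSC arrays. In LP it was 2.69 on control replicate 1, the narrow array, and 4.16 to 4.24 on the others. By this mean the fractions thus overlapped only through the narrow array. By gene, 4 of the 8 were lower in MaSC in controls and 7 with IFNα, as were 50.7% and 52% of all genes. The mean of 3 mature luminal markers ran from -0.088 to 0.68 in MaSC and from -0.013 to 0.33 in LP. The mean of 5 endothelial markers was 2.57 to 2.81 in MaSC controls, 2.67 to 3.12 in MaSC with IFNα, -0.17 to -0.11 in LP controls and 0.60 to 0.63 in LP with IFNα. Of these 5, Cdh5, named after its values were seen, passed as higher in LP with IFNα, by 3.59 ± 0.39 (adjusted p = 0.0381). The mean of 5 fibroblast markers was -1.10 and -0.34 in MaSC controls, -1.65 and -0.54 in MaSC with IFNα, -2.98 and -2.47 in LP controls, and -3.13 and -2.70 in LP with IFNα. With IFNα in MaSC, 5 of 5 fibroblast markers (median -0.46) had a difference below 0, as did 58.6% of all genes. So did 5 of 5 adipocyte markers (median -0.84), and 0 passed in either list. The mean of 5 adipocyte markers was 2.83 and 2.85 in MaSC controls, 1.93 and 2.19 in MaSC with IFNα, -0.029 and -0.015 in LP controls, and 0.11 and 0.49 in LP with IFNα. The mean of 8 leukocyte markers lay between -1.74 and -1.47 on 7 arrays and at -0.52 on LP control replicate 1. Their part in the differences of the replication genes was not tested.

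Other genes of the cell cycle give the context, in lists chosen with earlier results of these data known. Of 57 further replication genes, 50 had a difference below 0 in MaSC (median -0.27) and 45 in LP (median -0.34), against 58.6% and 49.6% of all genes, and 0 passed in either. In LP, 11 of the 57 were lower at an unadjusted p below 0.05, against 3.69% of all genes, and 0 were in MaSC. Those with the lowest p in LP were Ticrr, which helps to fire origins, at -0.76 ± 0.17, the histone chaperone gene Asf1b at -0.74 ± 0.20, and the repressor E2f8 at -1.05 ± 0.32. In MaSC they were Atad5, which unloads PCNA, at -0.57 ± 0.23, the fork protection gene Tipin at -0.40 ± 0.18, and the nuclease Dna2 at -0.92 ± 0.43. Without LP control replicate 1 the LP median of the 57 was -0.11, and after quantile normalization it was -0.072.

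The 27 measured mitotic genes, which act after S phase, had a median of -0.44 in MaSC and -1.06 in LP, with 26 and 27 below 0, against 58.6% and 49.6% of all genes, and 0 passing in either. In LP, 25 of them were lower at an unadjusted p below 0.05, against 3.69% of all genes, and in MaSC 2 were, against 1.9%. Unlike the members, they kept a median clearly below 0 in LP under every setting named above: -0.82 without LP control replicate 1, -0.74 with scaled arrays, -0.47 after quantile normalization and -0.76 after that of the other 7 arrays. In MaSC their median was -0.21 without MaSC control replicate 1. The difference between the lists was not tested.

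Genes that hold the cycle back or open G1 were measured too. Of 10 genes of CDK inhibitors and other brakes 0 passed, 2 were above 0 in MaSC and 4 in LP, and the medians were -0.20 and -0.30. Cdkn1a, encoding the inhibitor p21, had the lowest p in MaSC, at 0.49 ± 0.26 (adjusted p = 1.00), followed by the pocket protein genes Rbl2 at -0.26 and Rb1 at -0.28. In LP the lowest p was that of Cdkn2a, a tumour suppressor locus that encodes an inhibitor of Cdk4 and Cdk6, at -1.01 ± 0.34 (adjusted p = 0.582), followed by Cdkn1c at -0.67 and Cdkn2c at -0.52. The 6 G1 cyclin and kinase genes had medians of 0.085 and -0.063.

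**Figure D5:**
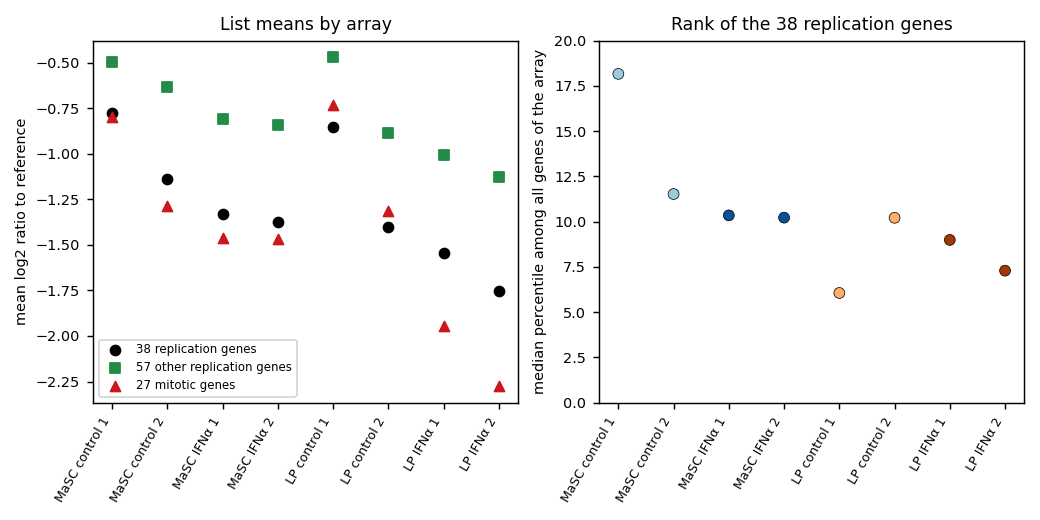
Left, mean log2 ratio to reference (y axis, not starting at 0) on each of the 8 arrays of the 38 replication genes (circles), 57 other replication genes (squares) and 27 mitotic genes (triangles). Right, the median percentile of the 38 genes among all genes of each array. By mean all IFNα arrays lie below their controls, but by percentile LP control replicate 1, at 6.06, lies lowest.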

How the data were processed

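Total RNA of 8 samples was measured on two-colour Agilent arrays, and the submitters' processing notes name Agilent Feature Extraction 11.0. The log ratios the authors deposited were used as log2 of sample over reference. Base, direction and normalization are not stated in the sources used here, and signal over background is unknown. Arrays number 2 per group, which limits the precision.

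Of 55681 probes, 30626 carried a symbol and 30398 of these had values on all arrays; they were averaged into 21794 genes. Groups were fitted with limma 3.58.1 in R 4.3.3 (1 mean per group, all 8 arrays, empirical Bayes without trend), two-sided, with Benjamini-Hochberg adjustment over all genes. Errors are SEs of that fit unless marked SD. The procedure was tested on simulated data.

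Members, lists and roles were chosen with earlier results of these data known. Values by array are given for the member that passed, for the members of lowest p per role in each response, and for 12 members always named. Of other lists, up to 3 genes of lowest p are named. Alternatives covered the probe used, scaling, quantile normalization, trend, a replicate block, a filter on flat genes, the 2 groups alone and each array left out.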

Additional observations from a re-analysis of the deposited data

How the results depend on the processing

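No member passed in the MaSC response, the LP response, their difference or the population comparisons under any alternative run. In the average response the 1 call became 0 under each: the probe of highest mean, arrays scaled to 1 SD, quantile normalization, trend and robust moderation, a replicate block, the filter on flat genes (at least 2 arrays beyond 1), quantile normalization of the 7 arrays other than LP control replicate 1 (added after seeing the data), and each array left out in turn (0 to 0). The LP median was -0.16 with scaled arrays, 0.016 after quantile normalization and -0.23 after that of the 7 arrays, and the difference of the responses had -0.14, -0.35 and -0.085. The control populations had 0.45, 0.67 and 0.58 under these settings and -0.085 to 0.47 with 1 array left out. The cause was not tested. Of all 38 genes, 9, 20 and 8 were above 0 in LP with scaled arrays, after quantile normalization and after that of the 7 arrays, against 1 in the values reported. Among the 19 genes given with values on every array, those that turned in LP were at 0.20 for Orc6, 0.054 for Pcna and 0.0052 for Pola1 with scaled arrays. After quantile normalization they were 0.37 for Orc6, 0.18 for Mcm2, 0.046 for Mcm5, 0.28 for Pcna, 0.026 for Rfc4, 0.074 for Pola1, 0.19 for Fen1 and 0.13 for Ccne2, and over the 7 arrays 0.061 for Cdc6, 0.011 for Pcna, 0.29 for Ccne1 and 0.65 for Ccne2. With the probe of highest mean Tk1 had 0.37. With 1 array left out, Cdc6 ran from -2.15 to 0.11, Ccne1 from -0.65 to 0.25 and Ccne2 from -1.42 to 1.11 in LP, and Mcm5 from -0.42 to 0.12 in MaSC. The replicate numbers are shared by the groups, but over all genes deviations of same-numbered arrays correlated at -0.018 to 0.31, so they were not taken as pairs. The highest value was that of MaSC control with MaSC IFNα. The mean of the 38 genes was, however, higher on replicate 1 than on replicate 2 in every group. With the replicate block 0 members passed in any comparison, and over all genes 12 passed in MaSC, 27 in LP and 98 on average. At an unadjusted p below 0.05, the block gave 5 members lower in MaSC, 14 in LP and 20 on average. Of all 21794 genes it gave 530, 1002 and 969. With only the 2 groups compared, 0 genes of all passed in MaSC or LP. Each log ratio carries no measure of signal over background, so dim probes could not be told from bright ones.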
